A study of Mus musculus with 2 samples.

Results

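Acetylcholine acts on nicotinic and muscarinic receptors and is broken down by acetylcholinesterase. The 10 genes described here are the nicotinic subunits Chrna3, Chrna4, Chrna5, Chrna7 and Chrnb2, the muscarinic receptors Chrm1, Chrm2, Chrm3 and Chrm4, and the enzyme gene Ache. They were picked by name from the 43346 genes of the deposited tables, and all 10 were measured. The choice of these genes and of the gene lists used below was made with earlier results of these data known. The samples were forebrains of newborn mice of strain B6NCrl at postnatal day 0, taken untreated as far as the labels say. Pup 1 (replicate 1) and pup 3 (replicate 2) gave 1 forebrain and 1 library each, and both belong to 1 group, so the study holds no contrast between conditions. The labels give both pups the same donor identifier and do not record their sex. With 1 library per pup, differences between the animals and technical differences cannot be told apart in the spread between them. Each library was made from 10 ng of total RNA longer than 200 nt, with 40066386 expected counts in total for pup 1 and 40431595 for pup 3.

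Nicotinic receptors are ion channels assembled from several subunits that open when acetylcholine binds. Muscarinic receptors are single proteins of the G protein-coupled class: those encoded by Chrm1 and Chrm3 signal mainly through Gq and phospholipase C, and those encoded by Chrm2 and Chrm4 mainly through Gi and Go. Neurons of the adult forebrain that make acetylcholine include projection neurons of the basal forebrain, striatal interneurons and neurons of the medial habenula. Acetylcholinesterase ends the action of acetylcholine by hydrolysis.

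Sequences of these genes go with the results. The first pair shows the ends of the coding sequence in the Chrna4 transcripts that code for different receptor tails, because the transcript share of Chrna4 differed between the pups. After a shared start of 1879 nt, the capitals mark the coding end of each transcript's own, 11 nt in Chrna4-201 and 47 nt in Chrna4-202, read 5′ to 3′ on the minus strand of chromosome 2 (GRCm38). The model of Chrna4-202 differs in length between the annotation of the files and the release used for these letters.
Chrna4-201: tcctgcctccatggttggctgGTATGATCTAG
Chrna4-202: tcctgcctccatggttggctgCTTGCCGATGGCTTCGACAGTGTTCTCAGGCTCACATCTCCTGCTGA

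Also shown is the stretch before the start of the 4 members that were lower in pup 3, from the RefSeq promoter table (GRCm38.p6, the same build as mm10). Each is read 5′ to 3′ on the minus strand, overlaps no annotated exon, and has the dinucleotide CG in capitals. The stretches lie at chr2:181039306-181039427 for Chrna4, chr9:55026563-55026812 for Chrna3, chr7:63212570-63212776 for Chrna7 and chr13:10360848-10361053 for Chrm3. The Chrna4 stretch lies before the first exon of Chrna4-201, Chrna4-202 and Chrna4-204, inside the first intron of the minor transcript Chrna4-203.
Chrna4: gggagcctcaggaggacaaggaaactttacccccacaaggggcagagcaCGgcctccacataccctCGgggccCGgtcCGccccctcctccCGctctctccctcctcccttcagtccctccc
Chrna3: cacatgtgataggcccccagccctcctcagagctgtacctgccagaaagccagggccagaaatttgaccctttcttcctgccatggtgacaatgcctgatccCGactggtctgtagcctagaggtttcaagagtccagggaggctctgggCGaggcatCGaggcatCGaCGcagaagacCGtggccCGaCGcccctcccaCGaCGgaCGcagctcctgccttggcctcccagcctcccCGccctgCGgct
Chrna7: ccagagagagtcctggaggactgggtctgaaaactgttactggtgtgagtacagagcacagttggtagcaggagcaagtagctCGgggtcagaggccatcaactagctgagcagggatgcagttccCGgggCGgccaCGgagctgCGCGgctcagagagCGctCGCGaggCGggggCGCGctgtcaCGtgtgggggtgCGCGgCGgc
Chrm3: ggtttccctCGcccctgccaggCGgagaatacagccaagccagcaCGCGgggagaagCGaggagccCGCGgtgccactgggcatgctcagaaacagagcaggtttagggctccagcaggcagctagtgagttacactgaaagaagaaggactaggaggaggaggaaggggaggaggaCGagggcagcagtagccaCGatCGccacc

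Over the full 300-nt window of that table, which runs past the start site, the members that were lower in pup 3 held 33 CG in Chrna4, 18 in Chrna3, 35 in Chrna7 and 11 in Chrm3. The windows of the other matched members held between 5 and 30 CG, so both sets overlap, and the median of all 32851 windows was 7. The GC box, searched as GGGCGG on both strands, was present in 8 of the 10 windows of the 9 matched members and in 35.7% of all windows. Chrna5 had 2 windows, with 5 and 25 CG. Chrm1 was not matched.

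The forebrain held RNA of all 10 genes, and Ache was the highest of them. Levels are given as deposited TPM, an abundance corrected for gene length that can be compared between genes of a library. In 9 of the 10 genes TPM was 1 or more in both pups, the rule used here for a detected gene. The median member had 5.58 TPM, against a median of 17.0 TPM over the 13030 detected protein-coding genes. The summed TPM was 52.34 and 29.92 in pup 1 and pup 3 for the 5 nicotinic subunits and 18.4 and 13.91 for the 4 muscarinic receptors. The smallest two-sided p that an exact sign-flip test of 2 animals allows is 0.5, and none was run. Ratios between genes were read on the log2 scale after 0.1 was added to each TPM. A ratio called beyond the pup spread had a mean of more than 3 SD and 1 sign in both pups.

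**Figure D1:**
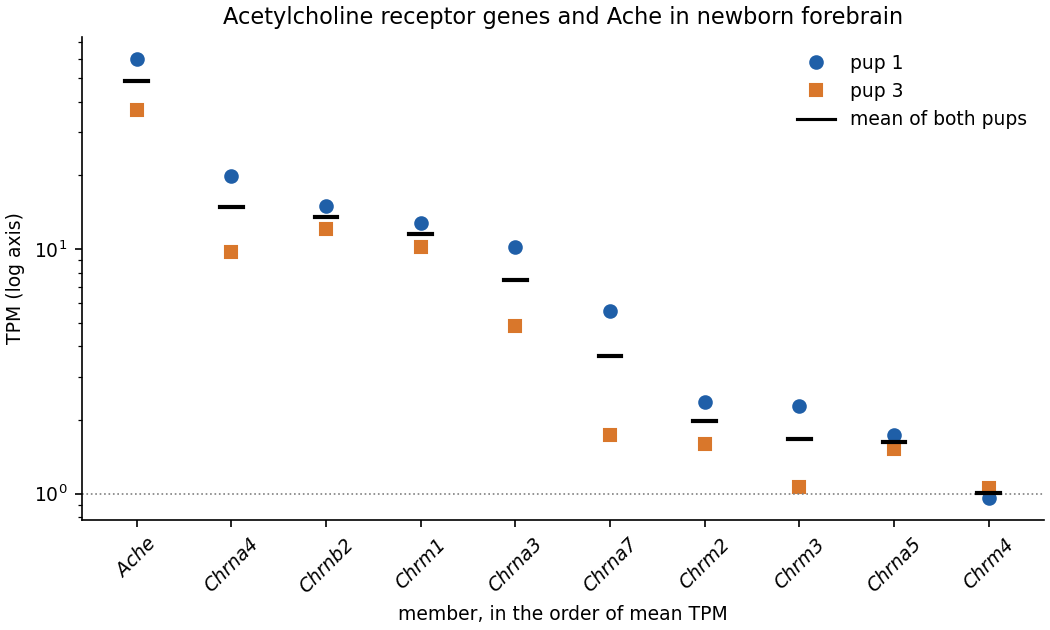
TPM of the 10 genes on a log axis, in the order of mean TPM. Circles are pup 1, squares pup 3, black bars the mean of both, and the dotted line marks 1 TPM. Ache stands above the rest in both pups, and Chrm4, at 0.96 and 1.06 TPM, is the only gene higher in pup 3.

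Among the nicotinic genes, Chrna4 and Chrnb2, whose products form the main high-affinity nicotinic receptor of the brain, had the highest levels. Chrna4 (chromosome 2, 181018380 to 181043546, minus strand, mm10) had 19.82 TPM in pup 1 and 9.76 in pup 3, a mean of 14.8 ± 7.11 (SD, n = 2). Chrnb2 (chromosome 3, 89746195 to 89764632, minus strand) had 15.05 and 12.06 TPM, a mean of 13.6 ± 2.11 (SD, n = 2). Their order changed between the pups: Chrnb2 stood at 0.761 times Chrna4 in pup 1 and at 1.23 times in pup 3, within the pup spread. The level of Chrna4 includes the short non-coding transcript Chrna4-204, at 6.49 and 2.52 TPM. Its leading coding transcript, Chrna4-201, had 11.48 and 6.98 TPM, below Chrnb2 in both pups. The lead of Chrna4 in pup 1 thus depends on Chrna4-204. Of the exonic bases of Chrnb2, 1365 of 8380 overlap exons of Adar, a double-stranded RNA editing enzyme on the opposite strand, which had 17.89 and 13.06 TPM. Whether the counting used strand is not stated in the files or labels used, so reads in the overlap cannot be assigned to either gene.

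Chrna3, a subunit of ganglionic and habenular receptors, had 10.16 TPM in pup 1 and 4.85 in pup 3, a mean of 7.51 ± 3.75 (SD, n = 2). It lies on chromosome 9 (55010111 to 55026562, minus strand) between its cluster neighbours Chrna5 and Chrnb4. Chrna5 (54980880 to 55007779, plus strand), an accessory subunit that joins other alpha and beta subunits, had 1.74 and 1.52 TPM, a mean of 1.63 ± 0.156 (SD, n = 2). Chrnb4 (55028154 to 55048779, minus strand), the usual beta partner of Chrna3, had 0.90 and 0.47 TPM and was below the detection rule. Chrna3 thus exceeded both of its neighbours: 5.58-fold and 3.06-fold over Chrna5 and 10.3-fold and 8.68-fold over Chrnb4 in pup 1 and pup 3, each beyond the pup spread. Reads of the 3 genes were scarce outside Chrna3, with 114 and 113 expected counts for Chrna5 and 76 and 45 for Chrnb4.

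Chrna7, which forms fast, calcium-permeable receptors and binds alpha-bungarotoxin, had the largest fold between the pups of the 10 genes, though not the largest difference in TPM. It had 5.57 TPM in pup 1 and 1.73 in pup 3, a mean of 3.65 ± 2.72 (SD, n = 2; chromosome 7, 63098692 to 63212569, minus strand), from 276 and 97 expected counts. Chrna4 exceeded it 3.51-fold in pup 1 and 5.39-fold in pup 3, beyond the pup spread. Chrna4 also exceeded Chrna5, its accessory partner in some receptors, 10.8-fold and 6.09-fold.

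Chrm1 was the leading muscarinic receptor gene in both pups. It had 12.8 TPM in pup 1 and 10.19 in pup 3, a mean of 11.5 ± 1.85 (SD, n = 2; chromosome 19, 8663789 to 8683587, plus strand), and both values lay above every value of the other muscarinic members. Chrm3, its Gq-coupled relative, had 2.28 and 1.07 TPM, a mean of 1.68 ± 0.856 (SD, n = 2; chromosome 13, 9875486 to 10360847, minus strand). Chrm1 exceeded Chrm3 5.42-fold and 8.79-fold, beyond the pup spread.

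The Gi-coupled receptors, like the Gq-coupled Chrm3, were near the detection rule. Chrm2, which is also known as the receptor that slows the heart and serves as a presynaptic autoreceptor, had 2.36 and 1.59 TPM, a mean of 1.98 ± 0.544 (SD, n = 2; chromosome 6, 36388084 to 36528414, plus strand). Chrm4, which is abundant in the adult striatum, had 0.96 and 1.06 TPM, a mean of 1.01 ± 0.0707 (SD, n = 2; chromosome 2, 91927249 to 91928688, plus strand), from 32 and 40 expected counts. The annotated model of Chrm4 holds a coding exon without untranslated parts. Chrm2 stood 2.32-fold and 1.46-fold above Chrm4, within the pup spread. Summed, the Gq-coupled members exceeded the Gi-coupled ones 4.44-fold and 4.13-fold (log2 2.10 ± 0.073, SD, n = 2). That excess came with Chrm1, as the other Gq-coupled member, Chrm3, at 2.28 and 1.07 TPM, lay below Chrm2 in both pups. The nicotinic members exceeded the muscarinic ones 2.83-fold and 2.14-fold (log2 1.30 ± 0.29, SD, n = 2).

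Ache, which encodes the enzyme that hydrolyses acetylcholine, had 59.91 TPM in pup 1 and 36.81 in pup 3, a mean of 48.4 ± 16.3 (SD, n = 2; chromosome 5, 137287519 to 137294466, plus strand). That mean was higher than in 75.3% of the detected protein-coding genes, against 46.5% for Chrna4 and 15.5% for Chrna7. Ache exceeded every receptor member in both pups, 3.01-fold and 3.74-fold over Chrna4, the next in order of mean TPM. Among the other neighbours in the order of mean TPM, Chrnb2 stood above Chrm1 by 1.17-fold and 1.18-fold, beyond the spread of these 2 pups. That excess is small, and reads in the overlap of Chrnb2 with Adar cannot be assigned, so the order of this pair is not settled. The other 7 of 9 neighbouring pairs did not differ beyond it, and over all 45 pairs of members 28 did.

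Transcripts were compared within the genes that have more than 1. Chrna3, Chrna5, Chrna7, Chrnb2 and Chrm4 have 1 annotated transcript each, and the other 5 members have several. The leading transcript was the same in both pups for 5 of these 5. Chrna4-201 held 57.94% of the TPM of Chrna4 in pup 1 and 71.5% in pup 3. Chrna4-202, the coding transcript with the longer tail printed above, held 9.3% in pup 1 and 0% in pup 3, or 9.51% and 4.46% by the deposited posterior means. The non-coding Chrna4-204, a processed transcript of 712 nt, held 32.76% and 25.79%. Its TPM was 6.49 and 2.52, from 98.98 and 43.4 expected counts. The long coding Chrna4-201, of 4565 nt, had 11.48 and 6.98 TPM, from 1275.48 and 876.64 expected counts. The share of Chrna4-204 in TPM, which is corrected for length, thus rests on far fewer counts.

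The Ache transcripts that took nearly all of the gene's TPM share their coding sequence of 1845 nt. Ache-201 held 57.42% in pup 1 and 70.62% in pup 3, and Ache-202 held 40.95% and 28.76%. Within the transcribed part they differ in 3 nt (CAG) at alternative splice acceptors, at position 137290012 for Ache-201 and 137290009 for Ache-202 on chromosome 5, before the coding sequence. Their first exons also start 7 nt apart and their last exons end 6 nt apart. Reads that do not cover these positions fit both transcripts, so the split between Ache-201 and Ache-202 rests on few of the reads. Chrm1-201 led Chrm1 at 55.82% and 58.17%, followed by Chrm1-202 at 38.57% and 30.67%. Chrm2-202 held 100% and 89.78% of Chrm2, and Chrm3-202 100% of Chrm3 in both pups. By posterior means the share of Chrm3-202 was 79.8% and 78.9%.

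**Figure D2:**
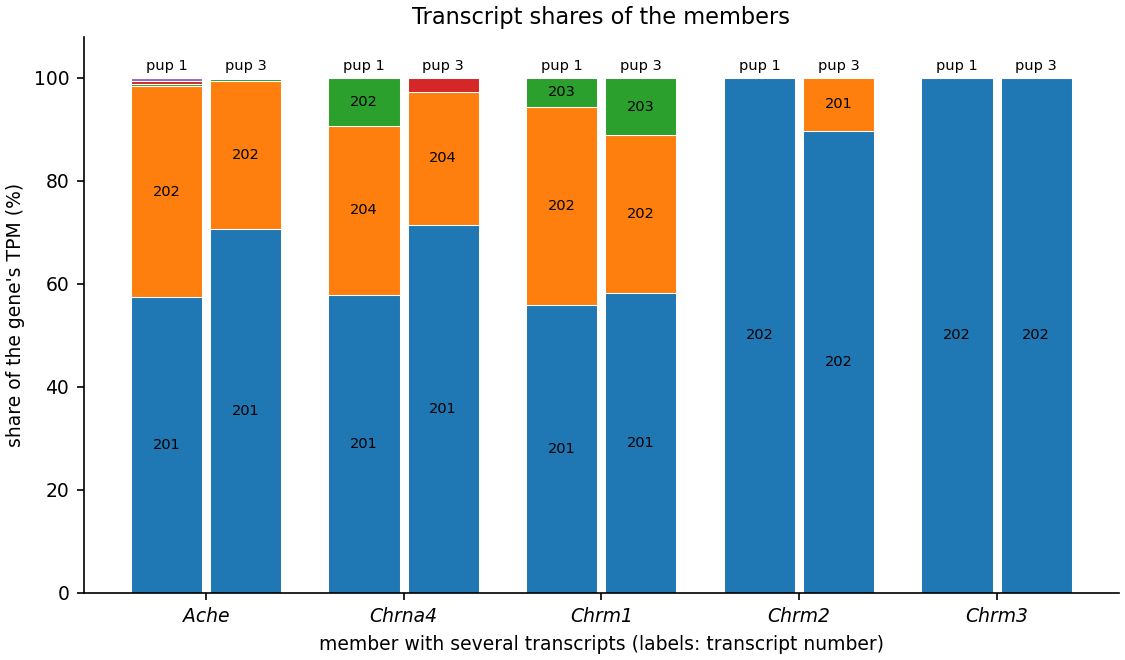
Share of each gene's TPM, in percent, held by its transcripts in pup 1 (left bar) and pup 3 (right bar) for the 5 members with several transcripts. Numbers inside the bars name the transcript. Ache-201 and Chrna4-201 held larger shares in pup 3, 70.62% and 71.5%, than in pup 1, 57.42% and 57.94%.

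The pups were then compared gene by gene. A gene was called lower or higher in pup 3 where its mean TPM was 1 or more, its TPM differed 2-fold or more after 0.1 was added, and the deposited credibility intervals did not overlap. By that rule 4 of 10 members were lower in pup 3, Chrna3, Chrna4, Chrna7 and Chrm3, and 0 were higher. Among all 14985 genes whose mean reached 1 TPM, 3.85% were lower and 0.127% higher by the same rule. The median gene also lay lower in pup 3, with a log2 ratio of -0.27, so values are given beside that shift. Of all these genes 80.4% had a lower level in pup 3 on the deposited scale and 49.1% after TMM scaling. After TMM scaling, which sets libraries to a common level through their many similar genes, the median log2 ratio was 0.01. These TMM ratios use counts, which are not divided by length. Where the deposited length of a gene differed between the pups, its ratio could change for that reason too. The calls then fell to 1 of 10 members, Chrna7, beside 1.21% of all genes lower and 0.307% higher. Each side holds 1 animal, so these calls describe 2 forebrains. In bulk tissue fewer cells of a type and less RNA per cell cannot be told apart.

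Chrna7 was 3.10-fold higher in pup 1 than in pup 3 (log2 ratio of pup 3 over pup 1 -1.63, or -1.36 relative to the median gene) and 2.63-fold higher after TMM scaling. Its ratio was lower than that of all but 0.888% of genes on the deposited scale and all but 0.848% after TMM scaling. Its deposited intervals ran from 4.81 to 6.09 TPM in pup 1 and from 1.39 to 2.06 in pup 3.

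The other called members lay just past the fold used. Chrna3 was 2.07-fold, Chrm3 2.03-fold and Chrna4 2.02-fold higher in pup 1. After TMM scaling these folds were 1.71, 1.74 and 1.48. The change in Chrna4 was larger in TPM than in expected counts, which were 1470 and 922. The deposited length of the gene, an average over its transcripts, was 3081 nt in pup 1 and 3457 nt in pup 3. Its leading coding transcript, Chrna4-201, had 11.48 and 6.98 TPM, less than 2-fold apart. The short non-coding Chrna4-204, with few counts, had 6.49 and 2.52 TPM, so the call of Chrna4 depends on it. Ache and Chrm2 were not called. Ache was 1.63-fold higher in pup 1 (log2 ratio -0.70, or -0.41 after TMM scaling), and Chrm2 1.46-fold.

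Chrnb2 and Chrm1 hardly differed from the median gene, at log2 ratios of -0.05 and -0.06 relative to it. Chrna5 was at -0.18 on the deposited scale and at 0.10 after TMM scaling. Chrm4 was at 0.13 and 0.43. The median over the 10 members was -0.62, against -0.27 over all genes, and after TMM scaling -0.41 against 0.01.

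**Figure D3:**
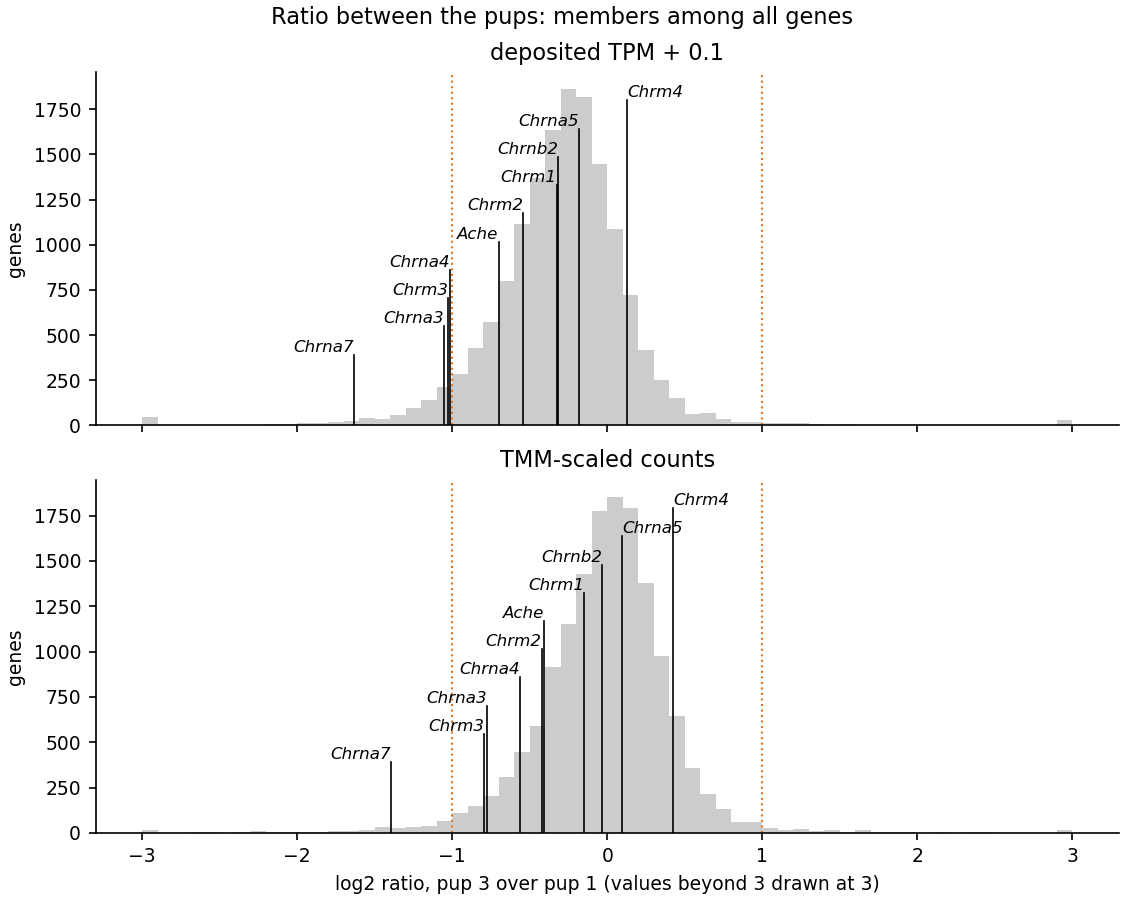
Log2 ratio of pup 3 over pup 1 for all 14985 genes whose mean reached 1 TPM (grey, number of genes), from deposited TPM + 0.1 (upper) and TMM-scaled counts (lower), with the 10 members as black lines and 2-fold marked by dotted lines. On the deposited scale 4 members lie beyond 2-fold on the left, and after TMM scaling only Chrna7, at -1.40, does.

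Marker genes of brain regions were read beside these differences. All 19 listed markers of the habenula, thalamus and hypothalamus, parts of the diencephalon, had lower TPM in pup 3, where 80.4% of all genes did, and 19 of 19 were also lower after TMM scaling, where 49.1% of all genes were. By the calling rule 12 of the 17 tested were lower (8 after TMM scaling). Their summed TPM was 627.29 in pup 1 and 261.33 in pup 3, and no marker was at 0 in both pups. The habenula markers, a region known for Chrna3 expression, summed to 46.8 and 24.77 TPM, with 6 of 6 lower in pup 3 on both scales, 3 called by deposited TPM and 2 after TMM scaling. Tcf7l2, a transcription factor of the thalamus and habenula, had 242.76 and 93.06 TPM, and the hypothalamic hormone gene Avp 157.21 and 69.05 TPM. Striatal markers summed to 284.88 and 278.92 TPM, with 7 of 8 lower in pup 3 and 4 of 8 after TMM scaling. Cortical markers summed to 390.95 and 511.74 TPM, with 4 of 8 and 2 of 8 lower. The rise of the cortical sum came with Neurod6, the highest of these markers, at 206.23 and 329.46 TPM. Interneuron markers summed to 1021.47 and 1182.65 TPM although 6 of 7 were lower, and 5 of 7 after TMM scaling. The higher sum came with Npy, a neuropeptide gene, at 280.09 and 534.7 TPM. Among these 3 lists Rasd2 (striatal) and Erbb4 (interneuron) were called lower in pup 3 by deposited TPM. After TMM scaling Rasd2 was still called lower, and Npy (interneuron) and 1 cortical marker were called higher. Erbb4 was then not called, with a log2 ratio of -1.30 on the deposited scale and -0.53 from TMM-scaled counts. The deposited length of Erbb4 was 5370 nt in pup 1 and 7631 nt in pup 3. Rasd2, Erbb4 and Npy were named after their values were seen. The share of diencephalic tissue in each library was not measured separately, and its part in the ratios of Chrna3, Chrna4, Chrna7 and Chrm3 was not tested.

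Markers of other cell types were also read beside the members. Skeletal muscle markers summed to 22.65 and 17.3 TPM, red cell markers to 796.87 and 1191.08 TPM, and pericyte and smooth muscle markers to 33.51 and 34.16 TPM. The calling rule could be applied to 3 of 8 skeletal muscle, 3 of 6 red cell and 5 of 6 pericyte and smooth muscle markers. None of them was called, beside 3.85% of all genes lower and 0.127% higher. Hbb-bs, the highest red cell marker, had 534.86 and 843.24 TPM, 1.58-fold higher in pup 3 and so below the fold used.

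**Figure D4:**
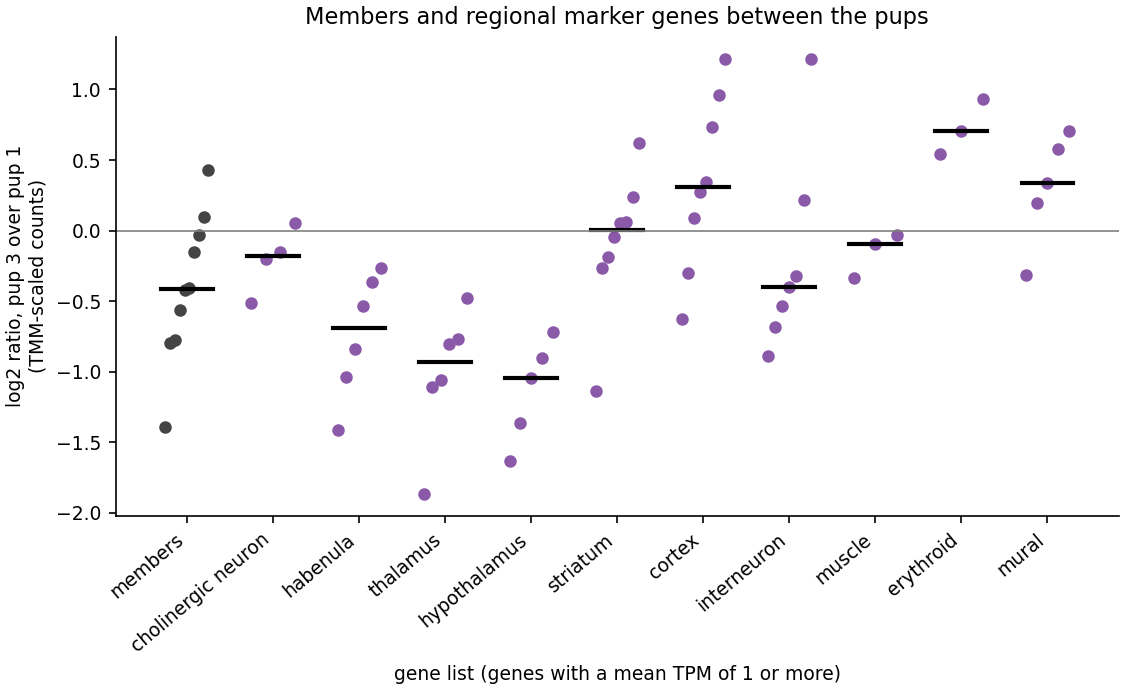
Log2 ratio of pup 3 over pup 1 after TMM scaling for the members and the marker lists, 1 dot per gene with a mean TPM of 1 or more and a black bar at each median. Habenula, thalamus and hypothalamus dots all lie below 0, the members run from -1.40 (Chrna7) to 0.43 (Chrm4), and the erythroid dots lie above 0.

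Genes that make and load acetylcholine stood at low levels. Chat, which synthesizes acetylcholine, had 0.24 TPM in pup 1 and 0.13 in pup 3, from 16 and 10 expected counts, and Ache exceeded it 176.5-fold and 160.5-fold with 0.1 added to each TPM. At so low a level the added value sets the size of the ratio: its mean log2 was 7.39, and 7.97 with 0.01 or 5.34 with 1 added. Slc18a3, the vesicular transporter whose gene lies within the span of Chat on the same strand, had 3.79 and 2.52 TPM. Slc5a7, which takes up choline at the nerve ending, had 1.66 and 0.78 TPM and was called lower in pup 3 on the deposited scale only. The 5 listed markers of cholinergic neurons other than these genes summed to 67.99 and 54.51 TPM. Of them, Isl1, a transcription factor of several neuron types, had 40.45 and 32.98 TPM, Lhx8, which specifies basal forebrain cholinergic neurons, 18.65 and 15.61, and Gbx1 1.14 and 0.76. Of the 5, 5 had lower TPM in pup 3, beside 80.4% of all genes, and 4 after TMM scaling. By the calling rule 0 of 4 tested differed.

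The 12 other receptor genes were mostly below the detection rule. Chrm5, the remaining muscarinic receptor, was the 1 detected in both pups, at 2.39 and 1.00 TPM, and was called lower in pup 3 on the deposited scale only. The muscle-type subunits were low, Chrnb1 at 1.01 and 0.57 TPM, Chrne at 0.87 and 0.48, Chrna1 at 0.15 and 0.07, and Chrng at 0.03 in both. Chrnd had no counts in either pup, which allows at most 3 counts in each library for counting error alone. Of the neuronal subunits, Chrna2 had 0.33 and 0.13 TPM, Chrna6, found in dopamine neurons, 0.30 and 0.19, and Chrnb3 0.11 and 0.03. The cochlear subunits had 0 and 0.1 TPM for Chrna9 and 0.08 and 0.01 for Chrna10, while the posterior means of Chrna9 were 0.65 and 0.69 TPM. Chrnb1, Chrne, Chrng and Chrnd also had higher posterior means than TPM, the highest being 1.37 TPM for Chrnb1 in pup 1.

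The related cholinesterase and the anchors of the enzyme were low as well. Bche, a second cholinesterase, had 1.25 and 0.9 TPM, so that Ache exceeded it 44.5-fold and 36.9-fold. Prima1, the membrane anchor of brain acetylcholinesterase, had 0.60 and 0.59 TPM, and Colq, its collagen tail at the muscle endplate, 0.12 and 0.03. The deposited posterior means were higher, at 1.58 and 1.46 TPM for Prima1 and 0.77 and 0.61 for Colq, with wide intervals that for Prima1 ran from 0.497 to 3.19 TPM in pup 1 and from 0.453 to 2.90 in pup 3.

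The list of chaperones and modulators of nicotinic receptors held genes with far more RNA than the receptors, and others with almost none. Ly6h, which limits surface levels of nicotinic receptors, had 781.83 and 800.35 TPM, and Ly6e, a related membrane protein, 167.57 and 129.66 TPM. The lowest of the 11 genes was Psca, at 0.05 and 0 TPM. Of the 11, 8 were detected in both pups, and 0 were called.

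The muscarinic effectors were detected in 12 of 13 cases. The G protein subunit genes Gnao1 and Gnai2 had 259.61 and 196.7 TPM and 249.04 and 222.17 TPM, and the lowest was Kcnj6, a potassium channel opened by Gi-coupled receptors, at 1.23 and 0.44 TPM. Plcb4, a phospholipase downstream of Gq, had 12.93 and 4.27 TPM and was the 1 effector called lower in pup 3, also after TMM scaling. Its name was chosen after its values were seen.

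**Figure D5:**
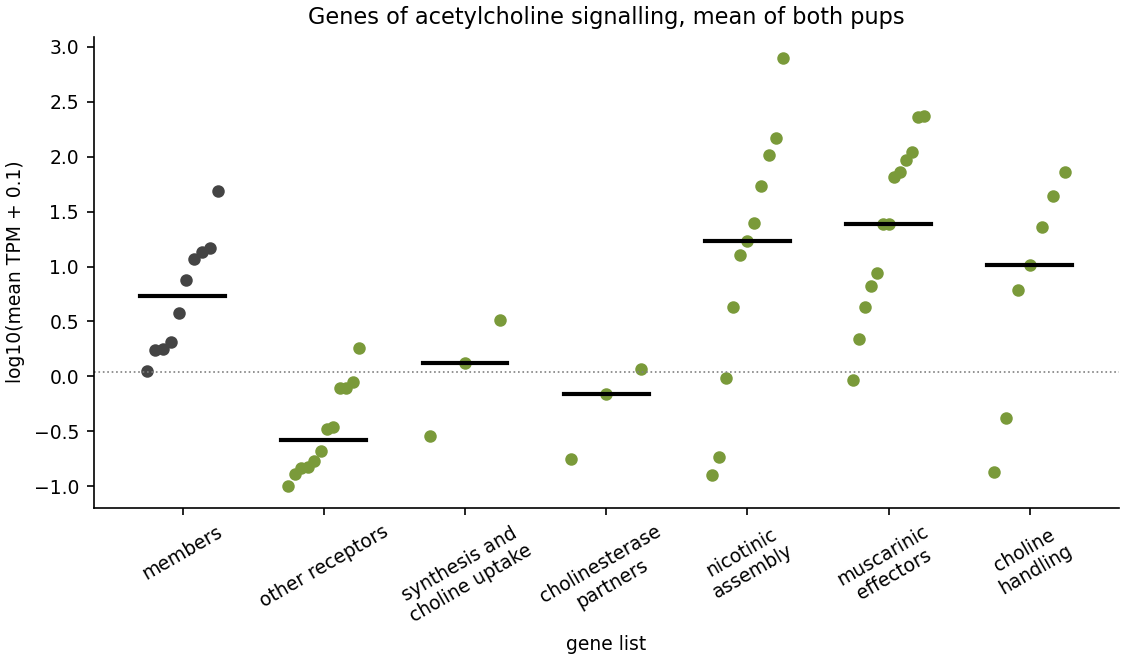
Mean TPM of both pups as log10(TPM + 0.1) for the members and 6 fixed lists of acetylcholine signalling, 1 dot per gene and a black bar at each list's median; the dotted line marks 1 TPM. The 12 other receptor genes lie mostly below the line, and the chaperone and effector lists reach the highest values.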

How the data were processed

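Total RNA libraries of 2 newborn forebrains were analysed as 1 group. The authors deposited gene and transcript tables with expected counts, TPM and credibility intervals around a posterior mean TPM, and each transcript's percent share of its gene's TPM, per the file headers. The sources used here do not give the interval level, the aligner, the quantifier or the strandedness. Per the deposited notes, assembly mm10 and GENCODE release 4 of the mouse series were used. Of 69691 entries 43346 were genes. Symbols, biotypes and positions came from GENCODE release 21, and 42462 genes matched; unmatched genes held 0.171% and 0.154% of counts. Entries that were not genes were left out of library sizes and comparisons.

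Expected counts were rounded and scaled with TMM in edgeR 4.0.16 (filterByExpr, minimum count 10, 16815 genes, factors 1.04 and 0.959), with DESeq2 1.42.0 size factors as an alternative; R 4.3.3 and Python 3.11.15 were used. No count model was tested. Log ratios used TPM + 0.1, which understates changes of low genes, and TMM ratios used counts + 0.5. The script of the calling rule was run on simulated data, and no error rate is taken from that. Members and lists were chosen with earlier results of these data known. Named genes were all members, all genes of the receptor, synthesis and cholinesterase lists, the 2 highest and the lowest of other lists, and genes of fixed pairs. Alternatives were other thresholds, pseudocounts, scalings, posterior means and each pup alone. The values of 1 listed gene are not reported here.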

Additional observations from a re-analysis of the deposited data

How the results depend on the processing

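Of 219 alternative values, 176 were rated the same, 12 lost and 1 gained their side of a rule, 4 reversed and 26 moved. A ratio was the same with unchanged direction and side of the rule, and a count within 1.5-fold. A level was the same when it lay within 1 SD of the mean of both pups. A single pup always lies that close to a mean of 2 pups, so its level could not be rated otherwise. A ratio beyond the pup spread has 1 sign in both pups by definition. A single pup, which has no SD, could therefore not reverse such a ratio. The log2 ratio of Chrnb2 over Chrna4, -0.05 with both pups, was 0.69 from expected counts, which are not divided by length, and -0.39 to 0.30 in single pups. The log2 ratio between the pups of Chrna5 was 0.10 with TMM and 0.10 with DESeq2 size factors. With TPM of 5 or more, 4 members were detected, and at 2 SD 4 of 9 neighbouring members stood apart. Members lower in pup 3 numbered 1 at a fold of 3, 2 with a mean TPM of 5 or more, and 1 with pseudocount 1, TMM or DESeq2 size factors. Among all genes those lower, 577, numbered 2475 at a fold of 1.5, 83 at a fold of 3, 967 without a filter, 274 with a mean TPM of 5 or more, 258 with pseudocount 1, 181 with TMM and 178 with DESeq2. Those higher, 19, numbered 63, 9, 30, 9, 12, 46 and 47 under the same settings. With 1 pup left out, 9 to 10 members were detected, their median was 3.29 to 7.87 TPM, and the log2 ratios were 1.10 to 1.503 for nicotinic over muscarinic and 2.05 to 2.15 for Gq-coupled over Gi-coupled members. No paired analysis was possible because the study has 1 group. Among the members Chrm4 had the fewest counts, and with 1 library per pup no error of library preparation could be measured.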

Other observations

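The 9 receptor members were set beside receptors of other transmitters, by summed TPM. They exceeded the 5 dopamine receptor genes 5.10-fold in pup 1 and 3.93-fold in pup 3, and the 14 serotonin receptor genes 1.61-fold and 1.53-fold. The 8 metabotropic glutamate receptor genes exceeded them 2.26-fold and 2.41-fold. All 3 ratios were larger than the pup spread.

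Of 7 genes that transport or phosphorylate choline, 5 were detected in both pups and 0 were called. The choline kinase genes Chkb and Chka, at the start of phosphatidylcholine synthesis, had 80.42 and 65.21 TPM and 46.79 and 41.08 TPM. The lowest was Slc44a4, a transporter of the choline transporter-like family, at 0.02 and 0.05 TPM.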
